A study of Mus musculus with 9 samples.

Results

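DNA replication genes and mitosis genes were followed through tumours grown from a mouse mammary cancer line and 2 pools of that line edited at Kmt2c or Kmt2d. The 44 genes, of 32286 measured features, were chosen by name as established parts of either process, with 19 replication genes and 25 mitosis genes, and no value measured here enters the rule, although the names were picked with earlier results of these data known. The replication genes were Mcm2, Mcm3, Mcm4, Mcm5, Mcm6, Mcm7, Pcna, Rrm1, Rrm2, Tyms, Gins2, Cdc6, Cdt1, Ccne1, Ccne2, Uhrf1, Rpa2, Fen1 and Lig1. The mitosis genes were Top2a, Mki67, Cdk1, Ccna2, Ccnb1, Ccnb2, Cdc20, Cenpa, Cenpe, Cenpf, Aurka, Aurkb, Plk1, Bub1, Bub1b, Ube2c, Pttg1, Birc5, Cks2, Cdkn3, Pbk, Cdca3, Tpx2, Kif11 and Kif20b. Single-cell RNA of 9 tumours was sequenced with a 5′ droplet kit, 3 of each genotype (WT, Kmt2c KO, Kmt2d KO).

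All tumours came from 168FARN, a mammary tumour line of the mouse that the study calls non-metastatic in its unedited form. Kmt2c and Kmt2d encode methyltransferases that mark histone H3 at enhancers. Pooled guides against exon 1 of the gene were delivered with Cas9 by transient transfection, and the sorted cells were kept as pools, so no line was a single clone. Cells of every group, WT included, carried an H2B-mCherry reporter, whose transcript is called H2BMc here, and were injected into the mammary fat pad of female Balb/c mice bought at 5 to 6 weeks of age. Digested tumours were cleared of debris and dead cells on a Percoll density gradient and a single interphase was loaded. Host cells without the edit were therefore sequenced beside tumour cells. The density fraction can affect their shares. The 3 tumours of a group repeat the mouse and not the knockout, and p-values measure the spread between tumours of 1 cell pool. The deposited libraries are named by a number and a genotype letter, which was matched to a group through the sheet names of the tables of comparisons that go with the study, and the numbers 1 to 3 used here only name libraries.

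Before a cell divides it copies its genome in S phase and then separates the copies in mitosis. The Mcm2 to Mcm7 proteins form the ring that unwinds DNA, Cdc6 and Cdt1 load this ring, Pcna is the clamp that holds polymerases on DNA, Fen1 and Lig1 finish the lagging strand, and ribonucleotide reductase (Rrm1 and Rrm2) and thymidylate synthase (Tyms) supply nucleotides. Cyclin-dependent kinase 1 (Cdk1) with cyclins A and B, the Polo and Aurora kinases and the spindle checkpoint then drive mitosis, and Ki-67 (Mki67) is the pathologist's usual marker of dividing tumour cells. E2F factors turn on many replication genes as cells enter S phase, and mitosis genes are commonly held down until G2 through an element called the cell-cycle genes homology region (CHR), often near CCAAT boxes bound by NF-Y.

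Promoters of the members are shown because the letters of these elements differed between the replication and the mitosis genes. A promoter was taken as the 300 bases from 250 before to 50 after a RefSeq start site (build GRCm38), and 37 of the 44 genes matched an entry, the others being Mcm4, Gins2, Ccne2, Ccna2, Aurkb, Pbk and Tpx2. Words were searched on both strands: TTTGAA or TTCGAA for the CHR, CCAAT for the CCAAT box, and TTTCCCGC, TTTCGCGC, TTTGCCGC or TTTGGCGC for E2F, and hits of different words may overlap. Among 21 promoters of the mitosis genes, 16 (76.2%) held a CHR word, 18 (85.7%) a CCAAT word, 15 (71.4%) both and 1 (4.76%) an E2F word. Among 21 promoters of 16 replication genes, 3 (14.3%) held a CHR word, 12 (57.1%) a CCAAT word, 2 (9.52%) both and 8 (38.1%) an E2F word. Over all 32851 promoters of the same length the shares were 19.2% for CHR, 37.4% for CCAAT, 7.52% for both and 2.26% for E2F. The words are matches of letters and not shown sites. Capitals in the sequences mark every match, and each reads 5′ to 3′ on the strand of its gene.

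Mitosis genes, for which Ki-67, cyclin B2 and the anaphase activator Cdc20 stand, are Mki67 at chr7:135716330-135716629 (minus strand), Ccnb2 at chr9:70421505-70421804 (minus strand) and Cdc20 at chr4:118437294-118437593 (minus strand). In Cdc20 the CHR word began 18 bases before the start site, with CCAAT words at 53 and 8 bases before it.
Mki67: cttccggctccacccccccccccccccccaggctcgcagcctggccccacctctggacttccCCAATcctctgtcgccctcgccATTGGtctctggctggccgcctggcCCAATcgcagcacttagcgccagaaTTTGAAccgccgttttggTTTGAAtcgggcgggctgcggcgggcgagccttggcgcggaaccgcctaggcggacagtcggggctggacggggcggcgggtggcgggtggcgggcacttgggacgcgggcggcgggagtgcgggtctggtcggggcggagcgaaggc
Ccnb2: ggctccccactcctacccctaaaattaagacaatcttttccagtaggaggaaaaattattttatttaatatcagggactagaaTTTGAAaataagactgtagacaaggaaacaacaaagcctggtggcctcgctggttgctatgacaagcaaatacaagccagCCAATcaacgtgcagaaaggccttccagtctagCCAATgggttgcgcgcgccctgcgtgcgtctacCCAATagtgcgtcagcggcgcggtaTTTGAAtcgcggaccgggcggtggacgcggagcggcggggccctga
Cdc20: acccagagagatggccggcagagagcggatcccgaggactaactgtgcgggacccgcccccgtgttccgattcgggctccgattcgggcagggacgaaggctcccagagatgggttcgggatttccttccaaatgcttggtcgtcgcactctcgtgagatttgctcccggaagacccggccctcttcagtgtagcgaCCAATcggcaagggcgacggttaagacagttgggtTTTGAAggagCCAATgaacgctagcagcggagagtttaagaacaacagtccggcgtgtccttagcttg
Replication genes are shown by 2 subunits of the helicase ring, Mcm6 at chr1:128359656-128359955 (minus strand) and Mcm5 at chr8:75109259-75109558 (plus strand), and by Rrm1 at chr7:102441445-102441744 (plus strand), the member that passed a genotype test in the tumour cells, although several alternatives lost that call. Mcm6 and Mcm5 held overlapping E2F words and no CHR word, and Rrm1 held CCAAT words alone.
Mcm6: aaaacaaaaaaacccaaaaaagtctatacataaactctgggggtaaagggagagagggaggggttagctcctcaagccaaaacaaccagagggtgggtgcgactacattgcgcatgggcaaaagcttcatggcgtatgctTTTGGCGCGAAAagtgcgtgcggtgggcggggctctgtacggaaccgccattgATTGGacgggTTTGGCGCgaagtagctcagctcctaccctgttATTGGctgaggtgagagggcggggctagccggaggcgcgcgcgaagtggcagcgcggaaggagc
Mcm5: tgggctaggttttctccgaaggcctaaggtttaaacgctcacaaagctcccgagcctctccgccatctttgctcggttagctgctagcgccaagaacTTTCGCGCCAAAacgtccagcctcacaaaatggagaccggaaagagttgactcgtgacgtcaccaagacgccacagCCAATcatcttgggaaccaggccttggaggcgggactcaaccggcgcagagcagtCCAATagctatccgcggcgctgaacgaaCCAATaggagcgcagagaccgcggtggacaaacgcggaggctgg
Rrm1: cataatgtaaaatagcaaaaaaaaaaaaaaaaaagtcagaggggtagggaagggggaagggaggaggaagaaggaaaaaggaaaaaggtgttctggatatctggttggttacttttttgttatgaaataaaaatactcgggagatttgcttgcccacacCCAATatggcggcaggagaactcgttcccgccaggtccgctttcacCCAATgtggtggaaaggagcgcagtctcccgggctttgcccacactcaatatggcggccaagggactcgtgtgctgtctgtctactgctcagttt

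There were 89147 barcodes in the matrix, with 585680611 unique molecular identifiers (UMIs) in all, and 58645 cells passed the limits of over 500 and under 7500 genes and under 15% mitochondrial UMIs. Tumour cells were the 16546 cells with a UMI of H2BMc that met no rule for host cells, 353 to 3416 per library. The host rules used below took 816, 358 and 418 of the 58645 kept cells, so most kept cells entered no class. Among cells deep enough for the cycling classes below, the gate of H2BMc or Krt8 held 597 to 1798 per library in WT. It held 3813 to 7174 in Kmt2c KO and 3838 to 5056 in Kmt2d KO. With H2BMc required these counts were 345 to 902, 2127 to 3022 and 1749 to 2372. Whether the added cells are tumour cells was not tested. WT libraries had fewer barcodes (3109 to 3835 against 9214 to 22929) and deeper tumour cells, with median UMIs of 13730.5 to 24081 against 8661 to 11763 in Kmt2c KO and 11222 to 14766 in Kmt2d KO. The share of barcodes over the mitochondrial limit was 50.7%, 26.6% and 68.5% in WT 1, WT 2 and WT 3, against 13.0% to 29.5% in the knockout libraries. The part of this difference in the genotype comparisons was not tested. Levels are given as CPM, the UMIs of a gene per 1000000 UMIs summed over the tumour cells of a library. Kmt2c RNA was at 48.0 to 49.0 CPM in WT and 42.1 to 57.5 in Kmt2c KO, and Kmt2d RNA at 14.6 to 21.4 in WT and 24.4 to 31.8 in Kmt2d KO, so RNA levels do not check the labels, and an edit in exon 1 need not lower the RNA. H2BMc was at 72.8 to 112.7 CPM in WT, 141.3 to 152.6 in Kmt2c KO and 90.8 to 116.8 in Kmt2d KO, and Krt8 at 545 to 570 CPM in WT against 237 to 339 and 305 to 466. Krt18 gave 31 UMIs in all tumour cells. In the tumour sums the 9 macrophage markers added up to 16.2 to 19.1 CPM in WT, 23.8 to 30.2 in Kmt2c KO and 15.8 to 22.8 in Kmt2d KO. In the same order the 8 T cell markers added up to 0.202 to 0.348, 0.354 to 0.866 and 0.337 to 0.764 CPM. The 9 endothelial markers added up to 5.96 to 8.49, 13.3 to 16.7 and 5.75 to 13.7 CPM. Each sum was higher in Kmt2c KO than in WT without overlap, and the part of host RNA in the genotype comparisons was not tested. Between pairs of libraries 2 to 206 barcodes were shared, over 3819 kept cells (6.51%) and 1113 tumour cells.

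Tumour cells were classed by cycling phase with genes that are not members. Each tumour cell was thinned to 4000 UMIs and called G2/M-class with at least 2 UMIs over 21 mitosis-related genes that are not members, S-class with under 2 of those and at least 2 UMIs over 18 replication-related genes that are not members, and neither otherwise. This gave 4420 G2/M-class, 2021 S-class and 8719 other cells. The rule for S-class was also met by 2882 cells (65.2%) of the G2/M class, so the G2/M class holds cells with RNA of both lists and the S class is low in mitosis-related RNA by its rule. Of these 15160 cells, 5165 (34.1%) lay at the limit or 1 UMI under it, so the classes are ranges of a score and not cell types, and 1386 shallower tumour cells were left out. In WT 433 of 444, 902 of 922 and 345 of 353 tumour cells were deep enough. The counts were 3022 of 3416, 2363 of 2558 and 2127 of 2211 in Kmt2c KO. In Kmt2d KO they were 1749 of 1843, 1847 of 2001 and 2372 of 2798. Each knockout library thus lost a larger part than WT, and the part of this in the cycling shares was not tested. Median depth was 16805 UMIs in G2/M-class, 15466 in S-class and 10813 in the remaining cells.

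All 25 mitosis genes were higher in G2/M-class than in S-class cells in 9 of 9 libraries, by a median of 2.92 on the scale of log2(CPM + 1). This separation is set in part by the class rules and is a description. In settings chosen after seeing the data, the count stayed at 25 of 25 with the 2882 cells that met both rules left out (median 3.22) and was 22 of 25 with these cells counted as S-class (median 0.92), where Top2a, Cdk1 and Pbk were higher in G2/M-class cells in 8 of 9 libraries. Mki67 was at 437.6 CPM in G2/M-class cells, 48.5 in S-class cells and 6.93 in the others, with a median difference between G2/M-class and S-class of 3.36 and a range of 2.74 to 3.72 over the libraries. Ube2c, the ubiquitin-conjugating enzyme of the anaphase-promoting complex, was at 776.5, 27.5 and 5.15 CPM, with a median difference of 4.77. Cenpf, a kinetochore protein, and Plk1, the Polo kinase, also reached medians of 4.77, and cyclin B1 (Ccnb1) a median of 4.04. The smallest separations among mitosis genes were those of the kinase Pbk (2.02), Cdk1 (2.03) and the checkpoint kinase Bub1 (2.03). Cdk1 was at 223.9 CPM in G2/M-class, 53.3 in S-class and 8.17 in the remaining cells, and topoisomerase Top2a, which untangles sister DNA, at 375.8, 76.3 and 8.73 CPM.

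For the replication genes the order of the cycling classes depended on where the 2882 cells that met both rules were placed. With these cells in the G2/M class, Mcm2, Mcm3, Mcm4, Mcm5, Mcm6, Mcm7, Gins2, a further part of the helicase, and Cdt1 were higher in S-class than in G2/M-class cells in 9 of 9 libraries, 8 of 19 genes. Mcm2 was at 112.6 CPM in S-class cells, 79.4 in G2/M-class cells and 19.6 in the others, a median difference between G2/M-class and S-class of −0.51 (−0.71 to −0.17). Rrm1, Rrm2 and Tyms, the 3 members that supply nucleotides, went the other way in 9 of 9 libraries in that placement. Rrm2, the regulated subunit of ribonucleotide reductase, was at 279.9 CPM in G2/M-class cells, 151.3 in S-class cells and 8.79 in the others, with a median difference of 0.87, and Rrm1 was at 148.7, 97.3 and 23.1 CPM, with a median difference of 0.61 (0.41 to 0.87). The other 8 genes went in different directions in different libraries, among them Pcna with a median of −0.10, the cyclin E genes Ccne1 (0.09) and Ccne2 (0.36), and Cdc6 (−0.53). With the 2882 cells left out, 16 of the 19 genes were higher in S-class cells in 9 of 9 libraries and none in G2/M-class cells, with a median difference of −1.35, and with these cells counted as S-class all 19 were. The genes that supply nucleotides turned with the placement, with medians of 0.17 for Rrm1, −0.06 for Rrm2 and −0.36 for Tyms without the 2882 cells and −0.41, −0.97 and −0.76 with them in the S class. The grouping of genes by direction was made after the values were seen and is a description.

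**Figure D1:**
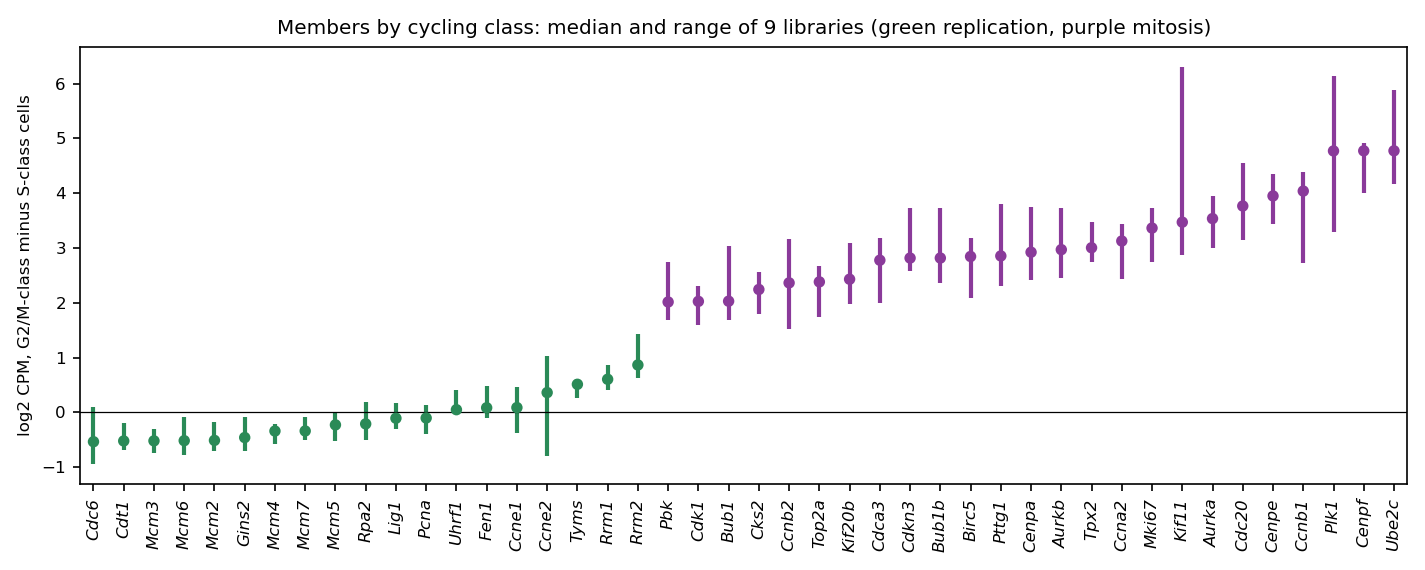
Difference of log2(CPM + 1) between G2/M-class and S-class tumour cells for each of the 44 genes, with the point at the median and the line over the range of 9 libraries. Every mitosis gene (purple) lies above 0 with its whole range, while replication genes (green) lie between −0.53 and 0.87 at the median; cells that met both class rules are counted as G2/M-class, and without them 16 of the 19 replication genes lie below 0 in 9 of 9 libraries.

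Against the cells in neither class the spread of levels was wide. The class in which a mitosis gene was higher stood 12.8 to 151 times above the neither class (median 53.4), and that of a replication gene 4.35 to 31.8 times (median 6.29). Cells of neither class are low in both lists of related genes by rule. These ratios are therefore set in part by the class rules and are a description. Summed over the list, mitosis genes were at 5321 CPM in G2/M-class, 646 in S-class and 144 in the remaining cells, and replication genes at 1955, 2072 and 337 CPM. In a bulk sum over tumour cells, a larger share of cycling cells and more RNA of these genes per cycling cell cannot be told apart, and both are therefore given.

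The tumours differed among themselves within a genotype. The share of tumour cells in either cycling class was 40.2%, 37.0% and 44.9% in WT, 50.2%, 35.4% and 38.7% in Kmt2c KO and 36.4%, 56.9% and 38.6% in Kmt2d KO. Kmt2d KO 2 and Kmt2c KO 1 stood above every WT tumour, while the other knockout tumours lay below the highest WT value, so the groups overlapped. G2/M-class cells, with the cells that met both rules among them, made up 42.3% of tumour cells in Kmt2d KO 2 and 36.9% in Kmt2c KO 1 against 22.7% to 29.6% in the other 7 libraries, while S-class cells took 10.6% to 16.8% everywhere. The Kruskal-Wallis statistic, tested by exact permutation over 1680 assignments of libraries to groups, gave p = 0.993. Mean differences were 0.699 percentage points for Kmt2c KO minus WT, 3.25 for Kmt2d KO minus WT and 2.55 for Kmt2d KO minus Kmt2c KO, each with an exact permutation p adjusted over the 3 pairs of 0.9, where 3 against 3 cannot go below 0.1. Without Kmt2c KO 1, Kmt2c KO minus WT was −3.68. Without Kmt2d KO 2, Kmt2d KO minus WT was −3.22 and Kmt2d KO minus Kmt2c KO was −3.91. Most other omissions of a library kept the directions. Without thinning, the shares were 71.2%, 62.1% and 75.6% in WT, 59.7%, 51.6% and 61.3% in Kmt2c KO and 54.9%, 74.5% and 61.8% in Kmt2d KO (exact permutation p = 0.132), with WT 1 and WT 3, the libraries with the deepest tumour cells, among the 3 highest.

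Summed levels of the lists moved with these shares only in part. Replication genes added up to 1238, 1154 and 1468 CPM in WT (1287 ± 162, SD, n = 3), 1234, 963 and 982 in Kmt2c KO (1060 ± 151) and 1173, 1313 and 1384 in Kmt2d KO (1290 ± 107). Mitosis genes added up to 2362, 1900 and 1701 CPM in WT (1988 ± 339), 2438, 1599 and 1848 in Kmt2c KO (1961 ± 431) and 2211, 2754 and 2132 in Kmt2d KO (2366 ± 338). Both sums overlapped between all groups. Kmt2d KO 2 held the highest level of 15 of the 25 mitosis genes and Kmt2c KO 2 the lowest of 16, while 9 of the 19 replication genes were highest in WT 3 and 17 were lowest in Kmt2c KO 2 or Kmt2c KO 3. From lowest to highest library, levels spanned 1.37 times (Mcm7) to 2.34 times (Ccne2) among replication genes, with a median of 1.62, and 1.50 times (Cks2) to 2.51 times (Bub1b) among mitosis genes, with a median of 1.97. Within G2/M-class cells alone, the mitosis sum was 5359, 5355 and 4114 CPM in WT, 5041, 4971 and 5185 in Kmt2c KO and 6228, 5355 and 5611 in Kmt2d KO, where Kmt2d KO 2 no longer stood above the rest. The replication sum in the same cells was 2001, 1969 and 2329 CPM in WT, 1755, 1799 and 1826 in Kmt2c KO and 1949, 1804 and 2346 in Kmt2d KO, with each Kmt2c KO tumour below each WT tumour. The sums over all tumour cells did not have this separation, and it was not tested. In S-class cells the replication sum was 2095, 2012 and 2141 CPM in WT, 2129, 1885 and 1738 in Kmt2c KO and 2187, 1981 and 2283 in Kmt2d KO. These groups overlapped.

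**Figure D2:**
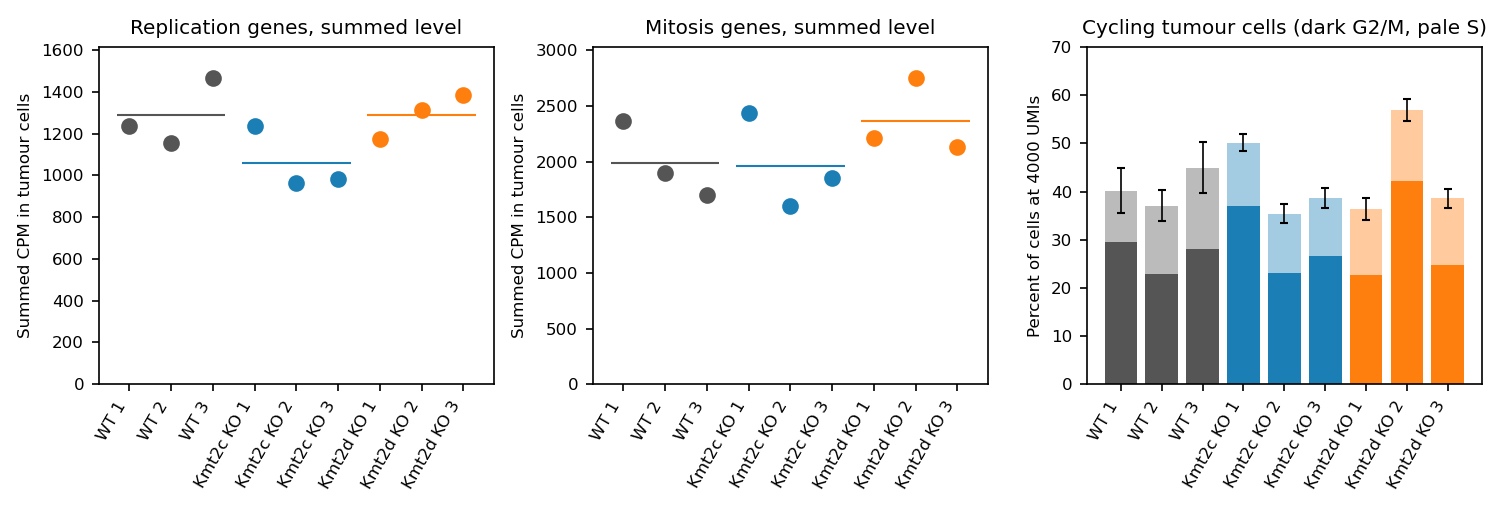
Summed CPM of the 19 replication and 25 mitosis genes in tumour cells, with a point per library and a line at the group mean, and the percent of tumour cells in the G2/M (dark) and S (pale) classes at 4000 UMIs, with 95% exact binomial intervals of their total, which cover counting error only. The groups overlap in each panel, and Kmt2d KO 2 is highest for the mitosis sum (2754 CPM) and for the cycling share (56.9%).

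The comparison of Kmt2c KO with WT asks whether losing Kmt2c changed the cycling program of tumour cells. Rrm1 was the member that passed the test, and it was lower in Kmt2c KO. All 19 replication genes had a log2 fold change below 0, from −0.49 to −0.01 with a median of −0.28, against a median of −0.00 over all genes tested, whereas mitosis genes lay on both sides, from −0.36 to 0.30 with a median of 0.00. The common direction of the replication genes was not kept under other ways of summing cells. With tumour cells thinned to 4000 UMIs each, which also left out the 1386 cells under that depth, their median was −0.05 and 8 of the 19 lay above 0, with Krt8-only cells added it was −0.07 and 5 lay above 0, and without WT 3 it was −0.17 and 5 lay above 0. Tumour cells were deeper in WT than in Kmt2c KO. The part of depth was not tested. Of 14016 genes tested, 1311 (9.35%) were lower and 1353 higher in Kmt2c KO at an adjusted p of 0.05 by edgeR's quasi-likelihood test with Benjamini-Hochberg adjustment. The count among the members, 1 of 44, lay below that share. At an unadjusted p under 0.05, 8 replication genes and 1 mitosis gene (Pbk) were lower and none higher, where 16.9% of all genes were lower, and DESeq2 called 4 members lower (Mcm2, Rrm1, Rrm2 and Fen1), where it called 10.3% of all genes lower. Levels of 7 replication genes (Mcm2, Rrm1, Cdc6, Ccne1, Rpa2, Fen1 and Lig1) were lower in every Kmt2c KO tumour than in any WT tumour, as were 21.5% of 14010 genes, and no member was higher in that way, as were 20.8%.

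Rrm1, the large subunit of ribonucleotide reductase, was at 92.5, 84.7 and 94.6 CPM in WT, 81.0, 59.6 and 61.1 in Kmt2c KO and 81.6, 89.1 and 95.9 in Kmt2d KO. Each Kmt2c KO tumour was below each WT tumour, with Kmt2c KO 1 the closest. The log2 fold change was −0.43 ± 0.12 (SE), with an adjusted p of 0.0333 by edgeR's quasi-likelihood test with Benjamini-Hochberg adjustment. The call was lost when any WT tumour, Kmt2c KO 2 or Kmt2c KO 3 was left out (adjusted p of 0.0710 to 0.125), while the log2 fold change stayed between −0.57 and −0.34 over the 9 omissions. It was also lost when every cell was thinned to 4000 UMIs (−0.54, adjusted p = 0.0586). Counting as tumour also the cells with Krt8 alone, which added many cells in every library, gave −0.27 (adjusted p = 0.178). The call was lost as well when both H2BMc and Krt8 were required.

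Rrm2, the partner subunit, was at 144.4, 131.5 and 191.8 CPM in WT, 141.7, 96.8 and 94.1 in Kmt2c KO and 134.7, 135.6 and 149.3 in Kmt2d KO. Its log2 fold change in Kmt2c KO was −0.49 ± 0.18 with an adjusted p of 0.0781, and Kmt2c KO 1 lay among the WT values. Mcm2 was at 59.2, 55.1 and 72.3 CPM in WT, 54.8, 43.7 and 41.1 in Kmt2c KO and 55.8, 61.0 and 68.2 in Kmt2d KO, a log2 fold change of −0.42 ± 0.14 in Kmt2c KO (adjusted p = 0.0628) with no overlap, although Kmt2c KO 1 and WT 2 were almost level. The flap nuclease Fen1 was at 45.0, 40.1 and 51.2 CPM in WT, 39.5, 32.0 and 30.4 in Kmt2c KO and 38.0, 44.3 and 52.4 in Kmt2d KO (−0.42 ± 0.15, adjusted p = 0.0721 for Kmt2c KO). DNA ligase Lig1 was at 64.2, 59.7 and 69.6 CPM in WT, 55.1, 42.9 and 50.8 in Kmt2c KO and 44.3, 68.8 and 55.6 in Kmt2d KO (−0.38 ± 0.14, adjusted p = 0.0887 for Kmt2c KO). These 3 genes shared the split of the Kmt2c KO tumours, with Kmt2c KO 1 nearest WT, and none passed the test.

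Mcm5, Pcna and the cyclin E genes did not pass in Kmt2c KO against WT. The helicase subunit Mcm5 was at 47.0, 42.0 and 54.9 CPM in WT, 53.8, 41.2 and 39.6 in Kmt2c KO and 51.5, 50.9 and 67.5 in Kmt2d KO, with a log2 fold change of −0.10 ± 0.16 in Kmt2c KO. Pcna was at 88.9, 85.0 and 101.5 CPM in WT, 94.8, 76.3 and 90.0 in Kmt2c KO and 76.2, 105.8 and 95.8 in Kmt2d KO (−0.08 ± 0.12 in Kmt2c KO). For both genes every group overlapped the others. Cyclin E1 (Ccne1), which starts S phase with Cdk2, was at 11.0, 10.5 and 12.6 CPM in WT, 9.36, 8.66 and 10.2 in Kmt2c KO and 9.07, 11.6 and 11.2 in Kmt2d KO (−0.27 ± 0.12, adjusted p = 0.148 in Kmt2c KO). Ccne2, the second cyclin E gene, was at 2.43, 4.10 and 4.71 CPM in WT, 3.48, 2.27 and 4.66 in Kmt2c KO and 3.78, 5.31 and 3.62 in Kmt2d KO (−0.13 ± 0.30 in Kmt2c KO), with all groups overlapping. The remaining replication genes had log2 fold changes from −0.42 (Cdc6) to −0.01 (Cdt1) in Kmt2c KO. With tumour cells thinned to 4000 UMIs each, Cdc6 turned to 0.36 ± 0.27, which did not pass.

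No mitosis gene passed in Kmt2c KO against WT, and the Kmt2c KO tumours differed among themselves in the mitosis genes given here. Cyclin A2 (Ccna2), which acts in S phase and G2, was at 110.9, 87.2 and 84.0 CPM in WT, 100.7, 65.3 and 53.9 in Kmt2c KO and 120.5, 104.6 and 119.3 in Kmt2d KO, with a log2 fold change of −0.36 ± 0.20 in Kmt2c KO (adjusted p = 0.249). Pbk, a mitotic kinase, was at 44.1, 35.8 and 33.9 CPM in WT, 36.5, 24.1 and 29.4 in Kmt2c KO and 36.2, 39.4 and 39.1 in Kmt2d KO (−0.34 ± 0.14, adjusted p = 0.110 in Kmt2c KO). In both genes Kmt2c KO 1 lay within the WT range and the other 2 tumours below it. Mki67 was at 182.3, 156.2 and 145.8 CPM in WT, 172.3, 116.1 and 156.1 in Kmt2c KO and 176.3, 234.2 and 188.6 in Kmt2d KO (−0.13 ± 0.14 in Kmt2c KO), and Cdk1 at 100.3, 90.2 and 76.0 CPM in WT, 101.7, 75.7 and 90.3 in Kmt2c KO and 92.1, 114.8 and 98.5 in Kmt2d KO (0.00 ± 0.13 in Kmt2c KO). Top2a was at 157.0, 130.7 and 112.0 CPM in WT, 169.5, 111.3 and 173.4 in Kmt2c KO and 121.1, 228.9 and 148.1 in Kmt2d KO (0.18 ± 0.22 in Kmt2c KO). For Mki67, Cdk1 and Top2a the Kmt2c KO values spanned most of the WT range or more.

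Which members passed depended on single libraries. Without Kmt2c KO 1, the tumour with the highest cycling share of its group, 9 members passed in Kmt2c KO against WT, 5 replication and 4 mitosis genes, all lower, where 6.99% of all genes were lower. Without Kmt2d KO 2, which is in neither of the groups compared, 7 passed, all replication genes and lower, where 14.9% of all genes were lower. Without any of WT 1, WT 2, WT 3, Kmt2c KO 2 or Kmt2c KO 3 none passed. With thinned tumour cells, with Krt8-only cells added or with both H2BMc and Krt8 required no member passed.

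The comparison of Kmt2d KO with WT asks the same of Kmt2d. No member passed the test. Of 14016 genes, 323 (2.30%) passed by edgeR's quasi-likelihood test with Benjamini-Hochberg adjustment, 2 members (Bub1b and Plk1, both higher) had an unadjusted p under 0.05, where 8.62% of all genes were higher, and DESeq2 also called 0 members and 5.12% of all genes. Mitosis genes had a median log2 fold change of 0.26, with 22 of 25 above 0, and replication genes a median of −0.04 with 7 of 19 above 0, where the median over all genes was 0.00 and 7117 of 14016 lay above 0. Aurkb and Kif11 were higher in every Kmt2d KO tumour than in any WT tumour, as were 13.3% of all genes, and for no member in the lower direction, as were 10.2%.

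Bub1b, the checkpoint protein BubR1, was at 22.5, 16.6 and 17.8 CPM in WT, 27.0, 15.7 and 20.8 in Kmt2c KO and 22.0, 39.5 and 25.2 in Kmt2d KO. Kmt2d KO 2 stood far above all others and Kmt2d KO 1 lay within the WT range. Its log2 fold change in Kmt2d KO was 0.58 ± 0.24 with an adjusted p of 0.239. Plk1 was at 49.6, 37.4 and 25.3 CPM in WT, 59.8, 38.9 and 40.0 in Kmt2c KO and 52.9, 61.6 and 49.5 in Kmt2d KO (0.52 ± 0.22, adjusted p = 0.265 in Kmt2d KO). Aurora kinase A (Aurka), which builds the spindle poles, was at 24.6, 19.1 and 14.4 CPM in WT, 28.5, 19.2 and 22.1 in Kmt2c KO and 23.6, 31.7 and 23.1 in Kmt2d KO (0.40 ± 0.20, adjusted p = 0.334 in Kmt2d KO). For Plk1 and Aurka the lowest value of all belonged to WT 3 and WT 1 lay within the Kmt2d KO range. Without Kmt2d KO 2 the median of the mitosis genes was 0.10 with 17 of 25 above 0, and the log2 fold change of Top2a went from 0.29 ± 0.22 to −0.01. Among replication genes the members farthest from WT in Kmt2d KO were Lig1 (−0.23 ± 0.14), Mcm5 (0.21 ± 0.16) and Rrm2 (−0.19 ± 0.18).

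The knockouts compared with each other give the test of a difference between them. In tumour cells no gene of 14016 passed by edgeR's quasi-likelihood test with Benjamini-Hochberg adjustment (0.00%), while 2505 had an unadjusted p under 0.05 and DESeq2 called 579 genes (4.39%) and 0 members. All 44 members had a log2 fold change above 0 for Kmt2d KO over Kmt2c KO, with medians of 0.29 for replication and 0.23 for mitosis genes, where the median over all genes was 0.01 and 7182 of 14016 lay above 0. The count above 0 was 36 with thinned cells, 39 with Krt8-only cells added, 39 without Kmt2c KO 2 and 37 without Kmt2d KO 2. Of the members 12 had an unadjusted p under 0.05, each higher in Kmt2d KO, where 8.80% of all genes were higher. Mcm2, Mcm3, Rrm1, Cdc6, Mki67 and Ccna2 did not overlap, higher in Kmt2d KO, as were 10.6% of all genes, and no member was lower in that way, as were 7.50%. This comparison shares its tumours with the other comparisons, so the same Kmt2c KO values enter it. Ccna2 differed by 0.62 ± 0.20 (adjusted p = 0.162), Ccnb1 by 0.45 ± 0.18 (adjusted p = 0.225), Mki67 by 0.41 ± 0.14 (adjusted p = 0.182), Mcm2 by 0.38 ± 0.14 (adjusted p = 0.194) and Rrm1 by 0.37 ± 0.12 (adjusted p = 0.159). Ccnb1, the cyclin that partners Cdk1 at mitotic entry, was at 40.1, 31.6 and 25.7 CPM in WT, 40.0, 26.5 and 27.4 in Kmt2c KO and 44.8, 48.1 and 38.1 in Kmt2d KO, where Kmt2c KO 1 and WT 1 lay within the Kmt2d KO range. Leaving out Kmt2d KO 2 raised the count over all genes from 0 to 2812 and the count of members to 1, Ccna2, and leaving out Kmt2c KO 1 gave 65 genes and 1 member.

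**Figure D3:**
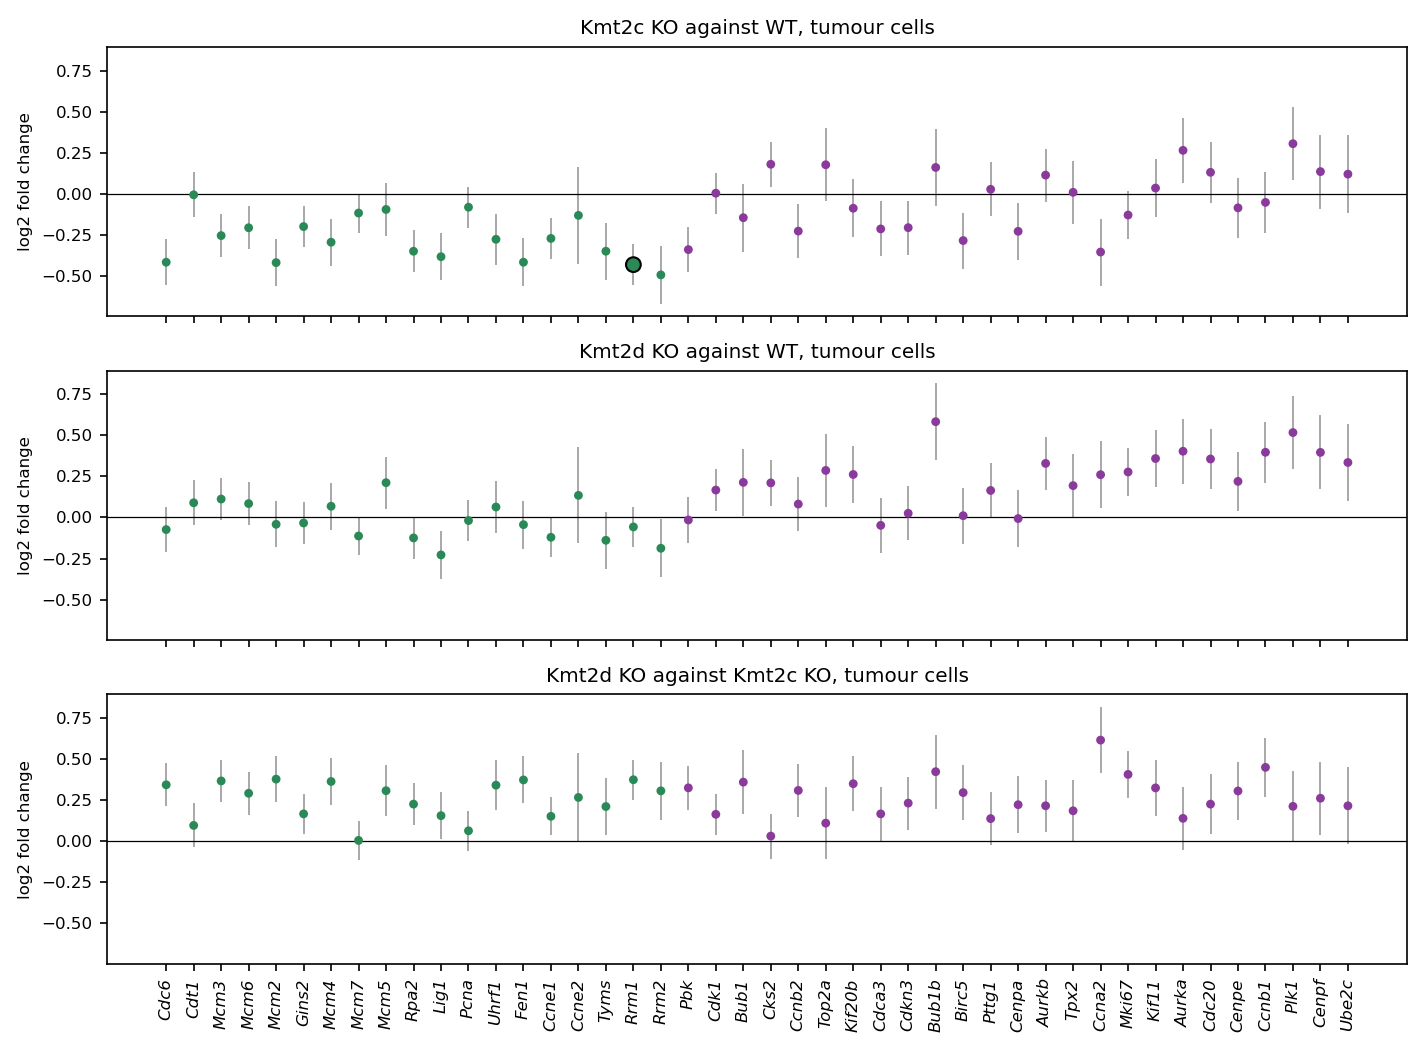
Log2 fold changes with standard errors (lines) of the 44 genes in tumour cells for the 3 genotype comparisons, replication genes in green and mitosis genes in purple, with a large ringed point at an adjusted p under 0.05. Rrm1 in Kmt2c KO against WT (−0.43) is the ringed gene, replication genes lie below 0 in that panel (8 of the 19 lie above 0 with thinned cells), and all 44 lie above 0 in Kmt2d KO against Kmt2c KO (36 with thinned cells).

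Genes that regulate these processes were counted from lists of names beside the members. Of 36 tested regulators of the cell cycle, 8 changed in Kmt2c KO against WT by edgeR's quasi-likelihood test with Benjamini-Hochberg adjustment, 5 lower and 3 higher, where 9.35% of all genes were lower and 9.65% higher. The kinase Wee1, which holds Cdk1 inactive, fell from 47.4, 56.1 and 54.4 CPM in WT to 32.1, 29.8 and 28.5 in Kmt2c KO, and was at 48.7, 64.0 and 44.4 in Kmt2d KO. Its log2 fold change was −0.81 ± 0.14 with an adjusted p of 0.00393, and the WT and Kmt2c KO values did not overlap. The checkpoint kinase Chek1 fell from 9.40, 7.93 and 9.42 CPM to 6.20, 4.50 and 5.54 (−0.72, adjusted p = 0.00741), and was at 7.68, 8.80 and 8.69 in Kmt2d KO. The locus Cdkn2a, whose products restrain Cdk4 and protect p53, fell from 53.9, 56.1 and 52.5 CPM to 39.1, 23.7 and 24.4 (−0.90, adjusted p = 0.0178). Cdk4 (−0.36) and Trp53 (−0.43) fell too, while the phosphatase gene Cdc25b (0.38), the inhibitor gene Cdkn2d (0.54) and Myc (0.48) rose.

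In Kmt2d KO against WT, 2 of the 36 regulators changed, where 2.30% of all genes passed. Cdkn2a fell to 22.2, 36.5 and 23.2 CPM (−1.02 ± 0.22, adjusted p = 0.0396). Cdc25b, whose product removes the mark set by Wee1, rose from 49.9, 49.3 and 41.3 CPM in WT to 76.7, 74.4 and 73.5 (0.64 ± 0.10, adjusted p = 0.00728), and was at 67.8, 57.2 and 58.8 in Kmt2c KO. Both comparisons use the same WT tumours. No regulator passed in Kmt2d KO against Kmt2c KO by edgeR, while DESeq2 called 3 there. Of the 18 replication-related genes used to call S-class cells, Exo1 (−0.54), Dscc1 (−0.63) and Hells (−0.50) fell in Kmt2c KO against WT, where 9.35% of all genes were lower, and none of the 21 mitosis-related genes passed in any comparison, where DESeq2 also called 0. Single tumour libraries moved these counts, and the counts over all genes moved too. In Kmt2c KO against WT, 4, 4 and 3 regulators passed without WT 1, WT 2 and WT 3. Without Kmt2c KO 1, Kmt2c KO 2 and Kmt2c KO 3 they numbered 6, 4 and 5. Without Kmt2d KO 2, 14 regulators passed, where 14.9% of all genes were lower, against 9.35% with every library. The count of replication-related genes was 0 without WT 1, WT 3, Kmt2c KO 2 or Kmt2c KO 3. It was 1 without WT 2 and 6 without Kmt2d KO 2. In Kmt2d KO against WT the regulators that passed numbered 1 to 3 without a library. In Kmt2d KO against Kmt2c KO 10 passed without Kmt2d KO 2, where the count over all genes also rose, as given above. For the mitosis-related genes the count was 1 in Kmt2c KO against WT without Kmt2c KO 1 or Kmt2d KO 2. Most of these counts have no share over all genes beside them and are not read as results about these lists.

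Host cells of the same tumours carry no edit and give the members' level outside the cancer line. Cells were called macrophage-like with 3 or more of 9 markers, T cell-like with a CD3 gene and 2 or more of 8 markers, and endothelial-like with 3 or more of 9 markers, each with no UMI of H2BMc or Krt8. This gave 816 macrophage-like, 358 T cell-like and 418 endothelial-like cells, in which each class's own markers added up to 12091, 4708 and 8182 CPM. Of 1094 cells that met the macrophage rule alone, 278 had a UMI of H2BMc or Krt8 and were left out. In all, 161 kept cells had H2BMc and met a host rule. Pooled over the libraries, mitosis genes summed to 1143 CPM in macrophage-like cells, 53.5% of the tumour level of 2138, to 1450 CPM (67.8%) in T cell-like and to 1035 CPM (48.4%) in endothelial-like cells, and replication genes to 46.8%, 83.9% and 44.9% of the tumour level. By library the mitosis sum ran from 662 to 2653 CPM in macrophage-like, from 152 to 2303 CPM in T cell-like and from 549.5 to 1413 CPM in endothelial-like cells, and lay below that of tumour cells of the same library in 8, 7 and 9 of the 9 libraries. The replication sum ran from 425 to 929.8, from 340.4 to 1772 and from 192 to 882.5 CPM and lay below the tumour level in 9, 5 and 9 libraries. Rhox5 and Fosl1, genes high in the tumour cells that were chosen after the data were seen in place of Krt18, were used as a rough gauge of tumour RNA in these classes. Rhox5 stood at 10.0%, 5.22% and 1.12% of its tumour level and Fosl1 at 6.03%, 0.953% and 2.87%, each below the pooled shares of both member lists in that class. The part of tumour RNA in the member levels of host cells was not tested.

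Of the 44 genes, 37 had enough counts for a test of host against tumour cells within libraries, and the others were Aurka, Bub1, Bub1b, Kif20b, Ccne1, Ccne2 and Cdc6. In macrophage-like cells 31 members were lower than in tumour cells and none higher, where 36.2% of 7770 genes were lower by edgeR's quasi-likelihood test with Benjamini-Hochberg adjustment. In endothelial-like cells 33 were lower and none higher (35.0% of all genes were lower), and in T cell-like cells 10 were lower and 1 higher (30.2% of all genes were lower and 24.4% higher). A library entered for a class with at least 20 of its cells. T cell-like cells therefore came from Kmt2c KO 2, Kmt2c KO 3, Kmt2d KO 1 and Kmt2d KO 3 alone, with no WT tumour. The other host classes came from all 9 libraries, so the counts of the classes do not rest on equal libraries. The T cell-like count went from 11 to 5 without Kmt2c KO 3, to 6 without Kmt2d KO 3 and to 7 without Kmt2d KO 1. Shares over all genes in these omissions are not given here. Rrm2 was lower by a log2 of −1.95 ± 0.24 in macrophage-like and −1.96 ± 0.23 in endothelial-like cells, and Ube2c differed by −1.34 ± 0.28, −1.93 ± 0.53 and −1.88 ± 0.29 in macrophage-like, T cell-like and endothelial-like cells. The licensing factor Cdt1 was set most apart in endothelial-like cells (−2.33 ± 0.23), against −0.54 ± 0.18 in macrophage-like and −1.74 ± 0.42 in T cell-like cells. Rpa2, a subunit of the single-strand DNA binding complex, was the member higher in T cell-like than in tumour cells (0.84 ± 0.29, adjusted p = 0.0156). Mki67 was lower by −0.42 ± 0.18 in macrophage-like and −0.95 ± 0.19 in endothelial-like cells and at 0.23 ± 0.29 in T cell-like cells, where it did not pass.

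**Figure D4:**
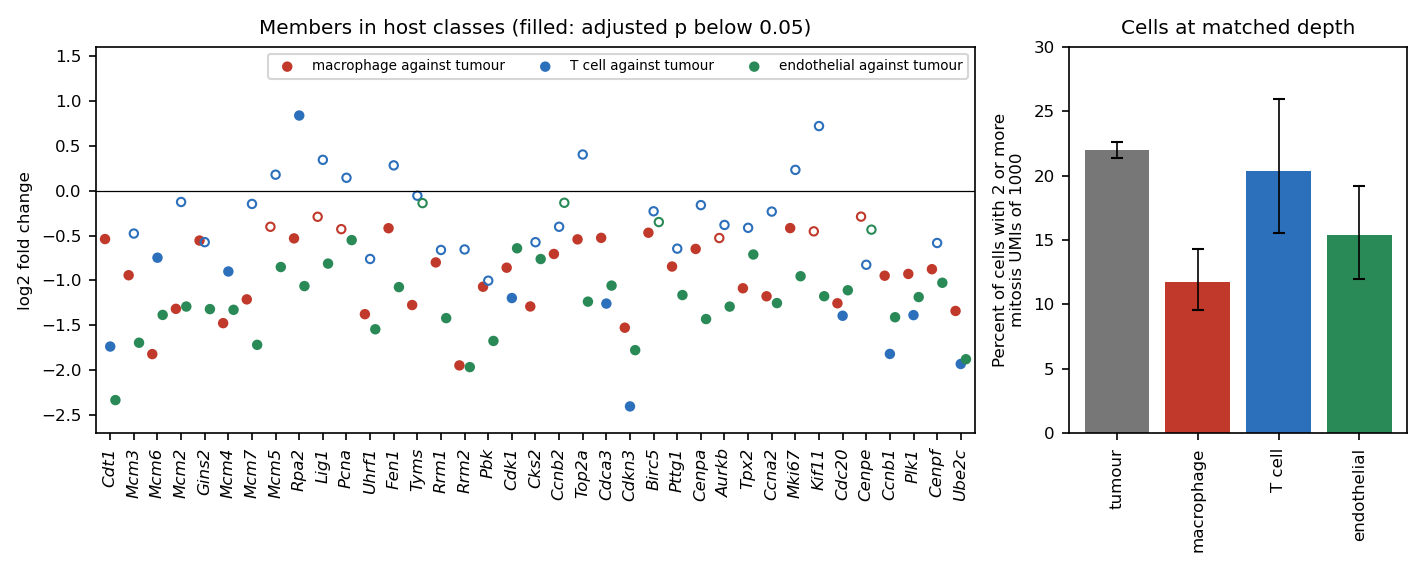
Left, log2 fold change of the 37 tested genes in each host class against tumour cells of the same libraries, with filled points at an adjusted p under 0.05; right, percent of cells with 2 or more UMIs of the 25 mitosis genes after each cell was thinned to 1000 UMIs, with 95% exact binomial intervals that cover counting error only. All filled points but 1, Rpa2 in T cell-like cells, lie below 0; the shares on the right are pooled over libraries, to which the classes give unequal numbers of cells. On the left, T cell-like cells come from Kmt2c KO 2, Kmt2c KO 3, Kmt2d KO 1 and Kmt2d KO 3 alone.

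At a depth of 1000 UMIs per cell, 22.0% of tumour cells (95% exact binomial interval 21.4 to 22.6) had at least 2 UMIs of the 25 mitosis genes. The share was 20.4% (15.6 to 25.9) in T cell-like, 15.4% (12.01 to 19.2) in endothelial-like and 11.8% (9.54 to 14.3) in macrophage-like cells, and 75 tumour, 68 macrophage-like, 108 T cell-like and 8 endothelial-like cells were too shallow. By library the share ran from 7.69% to 17.7% in macrophage-like and from 9.09% to 19.1% in endothelial-like cells, below that of tumour cells of the same library in 9 and 8 of the 9 libraries, and macrophage-like cells lay below endothelial-like cells in 6 of 9. Kmt2c KO 2 gave 129 of the 250 T cell-like cells, and there 24.0% had such UMIs against 15.7% of tumour cells. The share of T cell-like cells was 33.3% of 30 cells in Kmt2d KO 1 (17.0% in tumour cells) and 11.4% of 35 in Kmt2c KO 3 (18.8%), and the other 6 libraries held 3 to 17 such cells each. Unthinned pooled shares were 49.5% in tumour cells against 20.7%, 31.1% and 21.2%. The intervals cover counting error only. The mitosis UMIs of host cells were held by few cells: those with 10 or more made up 54 (6.62%) of the macrophage-like, 24 (6.70%) of the T cell-like and 60 (14.4%) of the endothelial-like cells, and held 79.5%, 68.1% and 86.9% of the mitosis UMIs of their class. These cells were deeper than the rest, with median UMIs of 5856.5 against 2263, 2889 against 1233.5 and 9464.5 against 4389. The cut was made on unthinned UMIs of the same genes. It therefore sets these shares and depths in part, and they are a description. Their own markers stood at 8579, 4177 and 7460 CPM against 12660, 4791 and 8396 in the rest, and Rhox5 at 77.9 against 44.7, 12.8 against 27.8 and 8.10 against 4.79 CPM, each beside a Rhox5 level of 494 CPM in tumour cells. Fosl1, at 180.3 CPM in tumour cells, was at 30.6 CPM (11 UMIs) in the macrophage-like cells with 10 or more mitosis UMIs against 7.67 (17 UMIs) in the rest, and at 3.24 against 5.75 CPM in endothelial-like cells. In T cell-like cells with 10 or more mitosis UMIs no Fosl1 UMI was counted, which allows up to 38.3 CPM (3 UMIs), against 1.99 CPM (1 UMI) in the rest. Both tumour genes were thus higher in the mitosis-rich macrophage-like cells than in the other macrophage-like cells. The part of doublets in these cells was not tested.

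Genotype of the tumour was then compared within host classes, over libraries with at least 20 cells of the class. In macrophage-like cells of Kmt2c KO against WT tumours, 21 of the 44 genes had enough counts and 4 were lower, where 165 of 4962 genes (3.33%) were lower by edgeR's quasi-likelihood test with Benjamini-Hochberg adjustment. Macrophage-like cells were deeper in each WT library (median UMIs of 2497.5 to 3622.5) than in each Kmt2c KO library (1680 to 2108). The part of depth in these calls was not tested. Mki67 was at 161.2, 229.4 and 157.6 CPM in WT, 50.3, 74.8 and 93.8 in Kmt2c KO and 108.3, 153.5 and 141.7 in Kmt2d KO, with no overlap between Kmt2c KO and WT (−1.21 ± 0.27, adjusted p = 0.0113). Mcm5 was at 68.2, 67.5 and 63.8 CPM in WT and 11.2, 29.9 and 17.8 in Kmt2c KO (−1.56 ± 0.42, adjusted p = 0.0275), and Rrm2 at 68.2, 54.0 and 45.0 CPM in WT and 11.2, 13.3 and 22.6 in Kmt2c KO (−1.64 ± 0.49, adjusted p = 0.0448), also without overlap. Birc5, the survivin subunit of the chromosomal passenger complex, was at 266.5, 60.7 and 138.8 CPM in WT and 67.1, 58.2 and 58.2 in Kmt2c KO (−1.34 ± 0.37, adjusted p = 0.0294), where WT 2 lay below Kmt2c KO 1. These values rest on few molecules, 294 UMIs for Mki67, 88 for Mcm5, 80 for Rrm2 and 206 for Birc5 over all 9 libraries. They also rest on few cells, 32, 48 and 68 macrophage-like cells in WT and 79, 210 and 211 in Kmt2c KO. The mitosis-rich macrophage-like cells described above are among them, and the part of doublets in these calls was not tested. Between 1 and 5 members passed when a library was left out, with 1 without WT 1, WT 2 or Kmt2c KO 3, with 2 without WT 3, Kmt2c KO 1 or Kmt2c KO 2, and with 5 without Kmt2d KO 1 or Kmt2d KO 2. The share over all genes in each omission is not given here.

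No member passed in the other host comparisons by edgeR, and DESeq2 was not run on them. In macrophage-like cells, 0.343% of all genes passed in Kmt2d KO against WT, and 4 members of 21 were lower at an unadjusted p under 0.05, as were 3.14% of all genes. In Kmt2d KO against Kmt2c KO 0.262% of all genes passed, and 5 members had an unadjusted p under 0.05 (4 higher and 1 lower), as had 13.5% of all genes. In endothelial-like cells, 24 members were tested, and 6.30%, 0.0373% and 0.0746% of all genes passed in Kmt2c KO against WT, Kmt2d KO against WT and Kmt2d KO against Kmt2c KO. At an unadjusted p under 0.05, 4 members were lower in Kmt2c KO than in WT (9.18% of all genes), 0 differed between Kmt2d KO and WT (10.0% of all genes) and 4 were higher in Kmt2d KO than in Kmt2c KO (4.44% of all genes). Tpx2, a spindle assembly factor, differed by −1.15 ± 0.42 between Kmt2c KO and WT in these cells (adjusted p = 0.124) and by 1.38 ± 0.43 between Kmt2d KO and Kmt2c KO (adjusted p = 0.292). Without Kmt2d KO 2, 3 members of the 28 then tested in endothelial-like cells passed in each of these comparisons, lower in Kmt2c KO both times, where 3.84% of all genes were lower in Kmt2c KO than in WT and 1.37% higher in Kmt2d KO than in Kmt2c KO. T cell-like cells were numerous enough in Kmt2c KO 2, Kmt2c KO 3, Kmt2d KO 1 and Kmt2d KO 3 alone, where 4 members were tested, none with an unadjusted p under 0.05 (6.75% of all genes), and 1.14% of all genes passed.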

How the data were processed

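The authors aligned and counted reads with Cell Ranger 7.0.1, which with the build mm10 is named in the submitters' processing notes, and deposited the UMI counts, whole numbers for each gene in each cell, of 9 libraries in 1 matrix; the sources used here do not say whether libraries were thinned to a common depth there. Cells with over 500 and under 7500 genes and under 15% mitochondrial UMIs were kept, no doublet caller was run, and cells were classed by marker genes rather than by clusters. UMI counts were summed per library and class and tested with edgeR 4.0.16 (limma 3.58.1, R 4.3.3) after its default filter on low counts, TMM scaling and Benjamini-Hochberg adjustment over all genes tested; tumour cells of all 9 libraries entered a single fit with genotype as its term, and host against tumour cells a fit with library as a block. DESeq2 1.42.0 was an alternative. Exact permutation tests used scipy 1.17.1. The test script was tested on simulated data.

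The 44 members, the lists and the tests were chosen with earlier results of these data known. Values in every library are given for Mcm2, Pcna, Rrm2, Ccne1, Ccne2, Mki67, Top2a, Cdk1 and Ccnb1, for members that passed in tumour cells, and otherwise for the 3 members of each list with the largest change in each comparison; other pathway genes are named where they passed. Depth limits genes with few UMIs most, and the intervals cover counting error only, since cells of a tumour are not replicates.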

Additional observations from a re-analysis of the deposited data

How the results depend on the processing

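No paired analysis was possible because the deposited libraries carry no replicate numbers of the labels. In Kmt2c KO against WT, 1 member passed; the count was 4 with DESeq2, 2 with no low-count filter, 6 with only the 2 groups in the fit, 2 without the deepest 5% of cells, and 0 with cells thinned to 4000 UMIs, with H2BMc or Krt8 as the gate and with both required. It went from 0 to 9 when a library was left out. In settings chosen after seeing the data it was 0 in S-class cells alone, 4 in cells of neither class and 1 without shared barcodes. For Kmt2d KO against WT the count of 0 became 1 in G2/M-class cells alone and ranged from 0 to 0 without a library; for Kmt2d KO against Kmt2c KO it became 1 with no filter and ranged from 0 to 1. Over all genes, DESeq2 called 10.3% lower in Kmt2c KO against WT, where the main fit called 9.35% lower. Shares over all genes for most other settings are not given here, so these counts are not read as results about the members. The cause of these changes was not tested.

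In host classes, no filter gave 2 members for Kmt2d KO against WT in macrophage-like cells, and 3 and 2 in endothelial-like cells for Kmt2c KO against WT and Kmt2d KO against Kmt2c KO. Leaving out a library gave 1 to 5 in macrophage-like cells of Kmt2c KO against WT, and 0 to 3 in both of those endothelial-like comparisons. Against tumour cells the counts ranged from 26 to 33, 5 to 12 and 32 to 36 for macrophage-like, T cell-like and endothelial-like cells. For most of these settings the share over all genes is not given, so the counts are not read as results about the members. The exact permutation p of the cycling share ranged from 0.671 to 1.0 without a library. At a limit of 1 or 3 UMIs, the share of cells with mitosis UMIs was 33.4% or 17.5% in tumour, 24.9% or 8.56% in macrophage-like, 34.8% or 14.8% in T cell-like and 27.8% or 10.0% in endothelial-like cells.

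Directions turned in 10 of 19 replication and 15 of 25 mitosis genes in Kmt2c KO against WT under at least 1 of the 19 alternatives not limited to a cycling class, in 14 and 9 in Kmt2d KO against WT and in 6 and 5 in Kmt2d KO against Kmt2c KO, none with an adjusted p under 0.05 in the turned direction. Among genes described by library whose main change exceeded its standard error, Ccne1 went to 0.10 in Kmt2c KO against WT with thinned cells and to −0.051 in Kmt2d KO against Kmt2c KO with H2BMc or Krt8 as the gate, Rrm2 to 0.0076 in Kmt2d KO against WT without WT 3 (range −0.29 to 0.0076 without a library), Top2a to −0.0054 there without Kmt2d KO 2 (range −0.0054 to 0.47), and Lig1 to −0.0054 in Kmt2d KO against Kmt2c KO without Kmt2d KO 2 (range −0.0054 to 0.29). Over all genes in tumour cells, Kmt2d KO against WT gave 323 calls against 689 with DESeq2, 71 with thinned cells, 539 with no filter, 178 with only the 2 groups and 104 to 820 without a library; Kmt2d KO against Kmt2c KO gave 0 against 579, 595 with no filter and up to 2812; and Kmt2c KO against WT gave 2664 against 1102 with thinned cells.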

Other observations

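Genotype was also compared within cycling classes of tumour cells, a choice made after seeing the data, with cells that met both class rules in the G2/M class. In cells of neither class, 4 members were lower in Kmt2c KO than in WT by edgeR's quasi-likelihood test with Benjamini-Hochberg adjustment, Cenpa, the histone variant of centromeres (−0.93, adjusted p = 0.00747), Rrm1 (−0.52, adjusted p = 0.0191), Ccna2 (−1.37 ± 0.36, adjusted p = 0.0240) and Ccnb2 (−0.99, adjusted p = 0.0488), where 8.46% of 12653 genes were lower. In G2/M-class cells, Lig1 was lower in Kmt2c KO than in WT (−0.39, adjusted p = 0.0373), as were 6.43% of 11967 genes, and Bub1b was higher in Kmt2d KO than in WT (0.51 ± 0.11, adjusted p = 0.0314), as were 1.22%. No member passed in S-class cells, in which 8.25% of 10993 genes passed in Kmt2c KO against WT, 1.13% in Kmt2d KO against WT and 0.0182% in Kmt2d KO against Kmt2c KO, and where Rrm1 differed by −0.33 (adjusted p = 0.140) in Kmt2c KO against WT. The mitosis sum in cells of neither class was 164, 165 and 175 CPM in WT, 163, 123 and 115 in Kmt2c KO and 142, 172 and 138 in Kmt2d KO, with each Kmt2c KO tumour below each WT tumour and Kmt2c KO 1 the closest. The replication sum in these cells was 326, 335 and 358 CPM in WT, 365, 305 and 278 in Kmt2c KO and 359, 375 and 357 in Kmt2d KO, where Kmt2c KO 1 lay above every WT tumour and the groups overlapped.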
